A study of Mus musculus with 3 samples.

Results

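The genes described here are 10 members of the Wnt signalling pathway. They include the Frizzled receptor genes Fzd1, Fzd2 and Fzd7, the co-receptor gene Lrp6 and the beta-catenin gene Ctnnb1. The transcription factor gene Lef1 and the feedback gene Axin2 are also among them. The others, Sfrp1, Sfrp2 and Dkk3, belong to families of secreted inhibitors and are called inhibitors here. Every probe set whose platform annotation named exactly 1 of these genes was taken, which gave 21 of the 22626 probe sets used, with 1 to 4 probe sets per gene. Probe sets of 1 gene share a target, so they are not independent of each other.

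The samples were 3 mammary tumours of female NMRI mice, with 1 array per tumour. All carried the transgene WAP-SVT/t (line 8 in the design text), in which the promoter of a milk protein gene drives SV40 large T and small t antigen in mammary epithelium, so the tumours model transformation of that cell type. The titles of tumours 1 and 2 begin with 585 and that of tumour 3 with 597, and no label says what these numbers mean, so tumours 1 and 2 may or may not share a mouse. No normal gland was analysed here, no age was given, and the design has 1 group, so differences between tumours are described without a test and an SD covers only the spread among these 3 arrays. Across arrays the median intensity was 111 to 120. Of 15 probe sets of 10 luminal epithelial marker genes, 13 were at or above the floor in every tumour, the floor being the median of the mean levels of all probe sets (a log2 level of 7.40). The other two, of Muc1 and Cldn4, were under it in tumour 3.

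Wnt proteins are secreted signals that bind a Frizzled receptor together with an LRP co-receptor at the cell surface. Binding shuts down a cytoplasmic complex, built on axin proteins, that otherwise marks beta-catenin for destruction, and beta-catenin then joins TCF and LEF factors on DNA. Secreted frizzled-related proteins (Sfrp) can bind Wnt ligands outside the cell, and Axin2 is transcribed in response to the signal and feeds back on it. In the mammary gland the pathway takes part in placode formation, branching and stem cell maintenance, and mouse mammary tumour virus was found to activate Wnt1 in tumours.

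In these tumours the secreted inhibitors and Lef1 differed most, and each was lowest in tumour 3 on all of its probe sets but 1 of Sfrp1. The member receptors, the co-receptor gene Lrp6, beta-catenin and Axin2 stayed within 2-fold on the scale used here. That contrast is narrow for Dkk3 and Fzd7, which lie on either side of the 2-fold line and cross it with other scalings, as given for each gene. It is also narrow for Fzd2, lowest in tumour 3 like the inhibitors. Its probe set 1418532_at was 1.95-fold apart and crossed the line with an offset of 16. Of the 21 probe sets, 7 (33.3%) had their highest and lowest tumour at least 2-fold apart, against 17.0% of all probe sets and 26.9% of those whose mean reached the floor. These 7 belonged to 4 genes, Sfrp1, Sfrp2, Dkk3 and Lef1. Each of the 7 was lowest in tumour 3, and 6 were highest in tumour 1. The median range over the tumours was 0.71 (log2) for the members and 0.48 for all probe sets. Since 4 of the 21 probe sets target Sfrp1 alone, these counts lean on few genes. Every level is log2(intensity + 50) of quantile-normalized arrays. Printed intensities are those deposited, so where tumours are close their order can differ from that of the levels, as for Dkk3 (1448669_at) and Ctnnb1 (1420811_a_at and 1450008_a_at). Fold differences are taken from the levels and are smaller than intensity ratios where probe sets are dim.

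**Figure D1:**
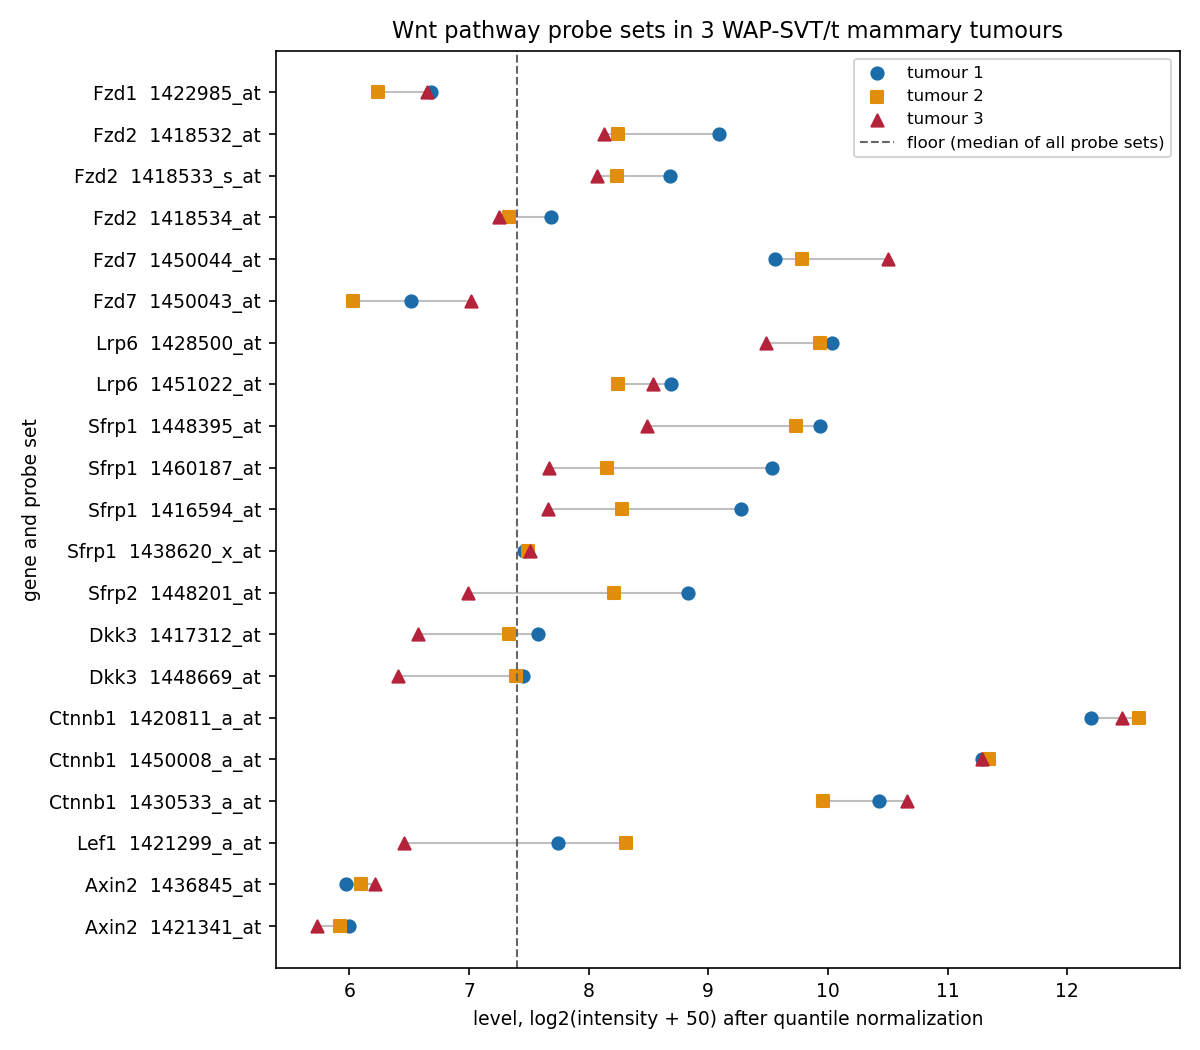
Level of each of the 21 probe sets in the 3 tumours, log2(intensity + 50) on the horizontal axis, with 1 row per probe set and 1 symbol per tumour; grey lines join the lowest and highest tumour and the dashed line is the floor at 7.40. Tumour 3 lies to the left of both other tumours in 12 of 21 rows. Among them are 3 of 4 Sfrp1 rows and the Sfrp2, Dkk3, Lef1 and Fzd2 rows. It lies to the right of both in 5 rows, among them both Fzd7 rows.

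Promoter sequence was looked up for the members in RefSeq windows of assembly GRCm38.p6 that run from 250 bases before to 50 bases after a gene's start. These gave 10 windows for 6 of the 10 genes. Sfrp2 and Lef1 are shown because they were low together in tumour 3, and Axin2 because its transcript is widely used as a readout of the pathway and was dim in every tumour. CpG pairs are in capitals. The Sfrp2 window is chr3:83766071-83766370, the Lef1 window (the most upstream of 4) is chr3:131110047-131110346 and the Axin2 window is chr11:108920099-108920398, each on the plus strand.
Sfrp2: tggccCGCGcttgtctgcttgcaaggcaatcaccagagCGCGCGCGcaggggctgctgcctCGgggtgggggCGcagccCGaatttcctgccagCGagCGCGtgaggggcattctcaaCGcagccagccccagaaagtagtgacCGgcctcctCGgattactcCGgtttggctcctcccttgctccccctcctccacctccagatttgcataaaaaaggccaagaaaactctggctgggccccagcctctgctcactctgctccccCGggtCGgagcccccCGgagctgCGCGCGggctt
Lef1: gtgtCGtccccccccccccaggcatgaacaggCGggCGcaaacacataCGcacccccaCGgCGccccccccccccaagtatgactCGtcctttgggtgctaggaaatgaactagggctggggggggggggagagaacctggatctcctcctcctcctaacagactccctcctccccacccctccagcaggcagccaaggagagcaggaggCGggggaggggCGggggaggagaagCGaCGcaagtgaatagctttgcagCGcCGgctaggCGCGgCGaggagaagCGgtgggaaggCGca
Axin2: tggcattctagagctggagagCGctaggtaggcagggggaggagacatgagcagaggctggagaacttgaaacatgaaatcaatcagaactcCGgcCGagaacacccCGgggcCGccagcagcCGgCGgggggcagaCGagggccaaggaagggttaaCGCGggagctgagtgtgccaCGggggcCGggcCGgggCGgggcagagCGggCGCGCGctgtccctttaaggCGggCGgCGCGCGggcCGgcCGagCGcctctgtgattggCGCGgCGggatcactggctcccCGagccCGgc
The windows held 22 CpG pairs for Sfrp2, 18 for Lef1 and 31 for Axin2, and the other Lef1 windows held 21, 8 and 5. The median over 32851 windows of the table was 7. The TCF/LEF core motif CTTTGAT, the only form searched and searched on both strands, was in 0 of the 10 member windows and in 3.73% of all windows. That count says only that these letters are not in the 300 bases searched. Methylation and factor binding were not analysed here.

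Sfrp1 encodes a secreted frizzled-related protein that can bind Wnt ligands. Probe set 1448395_at, the one with the highest mean, had intensities of 897, 817 and 302 in tumours 1, 2 and 3. Tumours 1 and 2 lay close together there and tumour 3 was 2.73-fold below tumour 1 and 2.37-fold below tumour 2. Probe set 1460187_at gave 669, 246 and 151, with tumour 1 2.60-fold above tumour 2 and 3.63-fold above tumour 3. Probe set 1416594_at gave 556, 274 and 150, with tumour 1 3.07-fold above tumour 3 and tumour 2 at -0.998 (log2) from tumour 1, just short of the 2-fold line. These probe sets shared the order tumour 1, tumour 2, tumour 3, but they placed tumour 2 differently, near tumour 1 on the first and nearer to tumour 3 on the others. The fourth, 1438620_x_at, was flat at 122, 136 and 132, a range of 0.05 (log2). The x in its name is the manufacturer's sign for probes that may also match other transcripts, and it is the one Sfrp1 probe set for which the annotation lists no sequence accession. Mean levels were 9.38 ± 0.78, 8.45 ± 0.97, 8.41 ± 0.82 and 7.49 ± 0.03 (SD, n = 3) in the order given.

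Sfrp2, a second gene of the same inhibitor family, had 1 probe set, 1448201_at, with intensities of 392, 260 and 78. Tumour 3 was below both others, 3.58-fold below tumour 1 and 2.34-fold below tumour 2, and it alone was under the floor. The mean level was 8.01 ± 0.94 (SD, n = 3).

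Dkk3 encodes a secreted member of the Dickkopf family. It is grouped with the inhibitors here by that family, and its own effect on Wnt signalling was not measured. Both of its probe sets had a mean below the floor. Intensities were 137, 116 and 46 on 1417312_at and 120, 123 and 36 on 1448669_at. On both, tumours 1 and 2 were near each other and tumour 3 was lowest, 2.01-fold and 2.05-fold below tumour 1. The difference of tumour 3 from tumour 2 was 1.70-fold and 1.98-fold, short of the 2-fold line on each. With an offset of 100 in place of 50 the ranges of the Dkk3 probe sets were 0.73 and 0.73 (log2), both under 2-fold. On the values as deposited tumours 1 and 3 differed by 0.96 and 0.98 (log2), so neither Dkk3 probe set was 2-fold apart in that pair, and with array medians subtracted the difference was 0.99 on 1417312_at.

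Lef1 encodes a DNA-binding partner of beta-catenin. Its only probe set, 1421299_a_at, had intensities of 159, 282 and 39. Tumour 2 was highest and tumour 3 lowest, 3.63-fold apart, and tumour 1 lay between them, 2.44-fold above tumour 3. The mean level of 7.50 ± 0.95 (SD, n = 3) was barely over the floor, and tumour 3 itself was under it. Lef1 was thus the member past 2-fold that did not have its highest level in tumour 1.

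The Frizzled receptor genes ran in different directions. Fzd2 was highest in tumour 1 and lowest in tumour 3 on 3 of 3 probe sets. Intensities were 479, 266 and 223 on 1418532_at, 351, 264 and 213 on 1418533_s_at, and 151, 115 and 102 on 1418534_at. Tumours 2 and 3 differed by at most 0.17 (log2) there, and the highest and lowest tumours were 1.95-fold, 1.53-fold and 1.35-fold apart. Fzd7, by contrast, was highest in tumour 3 on 2 of 2 probe sets. On 1450044_at its intensities were 686, 845 and 1452, a 1.92-fold range. The dim probe set 1450043_at gave 39, 16 and 80, a 1.98-fold range whose mean was below the floor. With an offset of 16 the ranges of 1450043_at (1.61, log2) and of 1418532_at of Fzd2 (1.06) were past 2-fold, and with array medians subtracted those of both Fzd7 probe sets were (up to 1.03). On the values as deposited 1450044_at had a range of 1.03, also past 2-fold. Tumour 3 was highest for Fzd7 in each of these cases. Tumours 1 and 2 had opposite orders on these Fzd7 probe sets. Fzd1 had 49, 26 and 52 on 1422985_at, under the floor in every tumour, with a 1.36-fold range.

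Lrp6, which encodes a co-receptor, was much alike in the tumours. Its intensities were 961, 939 and 660 on 1428500_at and 353, 267 and 315 on 1451022_at, with ranges of 1.46-fold and 1.36-fold. Tumour 3 was lowest on the first and tumour 2 on the second, so the probe sets did not share an order.

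Ctnnb1, which encodes beta-catenin, was bright on each of its 3 probe sets, with mean levels at percentiles 99.2, 96.9 and 92.0 of all probe sets. Intensities were 4632, 5759 and 6029 on 1420811_a_at, 2362, 2499 and 2604 on 1450008_a_at, and 1281, 953 and 1630 on 1430533_a_at. The ranges were 1.32-fold, 1.04-fold and 1.63-fold, and the probe sets disagreed on the order of the tumours. The mean levels were 12.42 ± 0.20, 11.31 ± 0.03 and 10.35 ± 0.36 (SD, n = 3). These are transcript levels, and the pathway acts on the stability and location of the protein, which was not measured.

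Axin2, the feedback gene, was dim in every tumour. Its intensities were 12, 19 and 25 on 1436845_at and 13, 11 and 3 on 1421341_at, and both probe sets were under the floor in 3 of 3 tumours. The orders were opposite, with tumour 3 highest on the first and lowest on the second. At such intensities neither order can be read as a difference.

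By pairs of tumours, 4 of the member genes set tumour 3 apart from tumour 1. In that pair 7 of the 21 probe sets were at least 2-fold lower in tumour 3, against 4.55% of all probe sets, and 0 were at least 2-fold higher, against 4.61%. Of the 15 member probe sets that reached the floor 5 were lower, against 7.49% of all that reached it. With an offset of 100 the 7 of 21 became 4. On the values as deposited 5 were lower and 1, of Fzd7, was higher, and with array medians subtracted 6 were lower and 1 higher. Against tumour 2, tumour 3 was at least 2-fold lower on 3 probe sets (background 5.52%), one each of Sfrp1, Sfrp2 and Lef1, and higher on 0 (background 5.86%). These 3 were among the 15 that reached the floor, where the background was 9.20%. Tumour 2 was at least 2-fold lower than tumour 1 on 1 probe set, of Sfrp1 (background 2.44%), and higher on 0 (background 2.52%). Each tumour enters more than 1 pair, so the counts are not independent. Without tumour 3 the count of members at least 2-fold apart was 1, and without tumour 1 it was 3. Tumour 3 was lowest on 12 of 21 member probe sets, against 36.1% of all probe sets, and tumour 1 was highest on 13, against 30.8%.

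**Figure D2:**
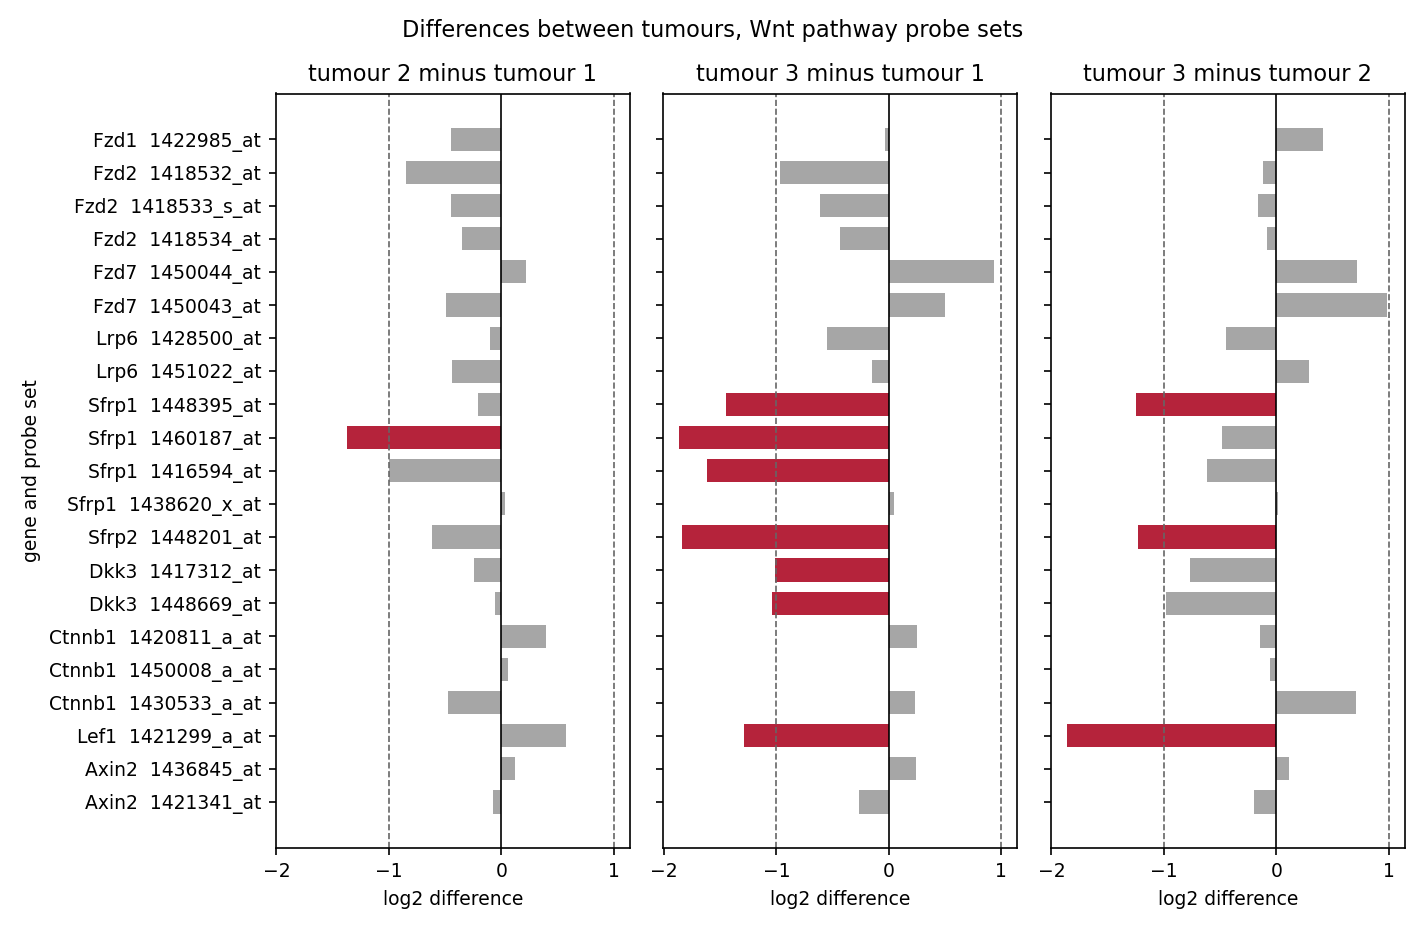
Log2 difference between the tumours of each pair for the 21 probe sets, 1 bar per probe set, with dashed lines at 2-fold (1 and -1) and bars past them in red. Red bars occur for Sfrp1, Sfrp2, Dkk3 and Lef1, and each points to the left, the side where the tumour named first is lower.

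Markers of other cells moved between the tumours as well. Sfrp and Dickkopf genes are also expressed by stromal fibroblasts. Over all probe sets, 36.1% were lowest in tumour 3 and 35.9% were highest there. In all, 4.55% were at least 2-fold lower there than in tumour 1, and 7.49% of those that reached the floor were. Of 21 probe sets of 13 fibroblast marker genes, 15 were lowest in tumour 3 and 7 were at least 2-fold lower there than in tumour 1. Their summed intensity was 21196, 20985 and 14297 in tumours 1, 2 and 3. The collagen gene Col1a1 (1423669_at) had 2782, 2090 and 1403, whereas the proteoglycan gene Dcn had 772, 1029 and 831. The median difference of tumour 3 from tumour 1 was -0.76 (log2) over the fibroblast markers and -1.45 over the 7 probe sets of Sfrp1, Sfrp2 and Dkk3. Among basal and myoepithelial markers 10 of 19 were lowest in tumour 3, with sums of 3209, 3551 and 1921. Endothelial markers were lowest in tumour 3 on 8 of 11 probe sets (sums of 1053, 1473 and 718), and macrophage markers on 10 of 14 (17893, 16598 and 11058). The other 4 macrophage probe sets were highest in tumour 3, among them that of Cd163 (36, 92 and 927). Adipocyte markers were highest in tumour 3 on 10 of 11, with sums of 1144, 1264 and 8691, and those of skeletal muscle summed to 326, 108 and 592. Luminal markers summed to 48520, 39151 and 40029. Bright keratin and Epcam probe sets hold much of that sum, such as Krt18 with 6457, 6414 and 6145. Cldn3 differed more, with 3832, 1408 and 2204 on 1451701_x_at. Of the 15 luminal probe sets 7 were lowest in tumour 3 and 2 were highest there, among them that of Cdh1 (1313, 1403 and 2793). At least 2-fold lower in tumour 3 than in tumour 1 were 3, and the median difference over the 15 was -0.47 (log2). Those 3 were Muc1 (1125, 1904 and 56), Cldn4 (1788, 669 and 111) and Krt19 (1590, 803 and 454). No marker probe set was at an intensity of 0 in any tumour. On the tumour 3 array probe sets for 18S ribosomal RNA, used as controls, also stood apart. The middle one had 9856, 9311 and 400 in tumours 1, 2 and 3, the 5′ one 5398, 4615 and 563, and the 3′ one 2697, 1833 and 7147. Beta-actin controls had 9646, 9859 and 9196 (3′), 9112, 9487 and 6938 (middle), and 9279, 8168 and 7303 (5′), each lowest in tumour 3. Gapdh controls were each highest there, with 6752, 7102 and 8187 (3′), 7868, 7190 and 9241 (middle), and 7471, 5862 and 10125 (5′). The part of RNA preparation and of these cell types in the member differences was not tested, and in whole tumours fewer cells of a type and less RNA per cell cannot be told apart.

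**Figure D3:**
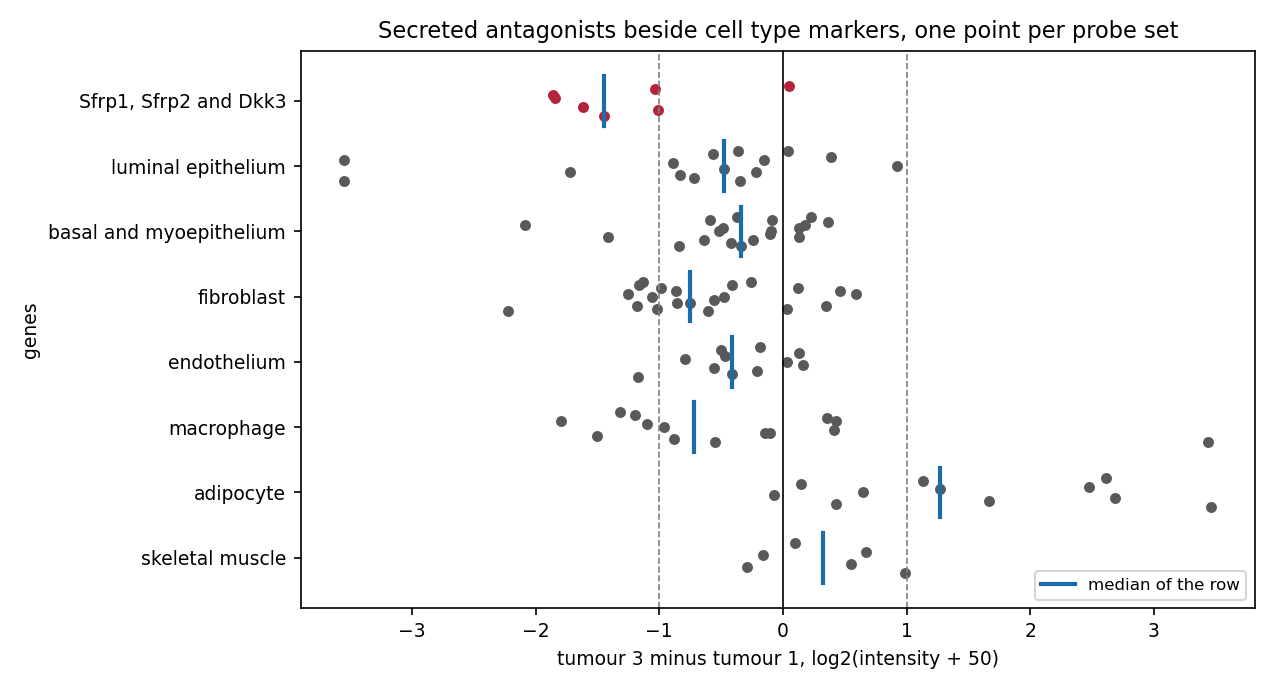
Difference of tumour 3 from tumour 1 (log2, horizontal axis) for the 7 probe sets of Sfrp1, Sfrp2 and Dkk3 (red) and for the probe sets of each cell type marker list (grey), 1 point per probe set, with the row median as a blue line. The inhibitor row has a median of -1.45, the fibroblast row -0.76 and the adipocyte row 1.27.

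The rest of the pathway was described from lists of other genes, 107 of which were on the array with 173 probe sets. Of these, 35 were at least 2-fold apart between the highest and lowest tumour, beside the 17.0% of all probe sets. Of the 84 that reached the floor 27 were, beside 26.9% of all that reached it. With an offset of 16 the count of 35 was 57, without tumour 1 it was 20 and without tumour 3 it was 11.

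Of the Wnt ligands and the genes for their secretion, 5 of 27 probe sets reached the floor. At least 2-fold apart were 4 of the 27, beside 17.0% of all probe sets, and 2 of the 5, beside 26.9% of all that reached the floor. Wls, which carries Wnt proteins to the cell surface, had intensities of 235, 645 and 438 on 1423824_at, highest in tumour 2. The ligand gene Wnt5a had 160, 244 and 77 on 1436791_at, with tumour 3 lowest as for the inhibitors. Wnt4, a ligand gene that responds to progesterone in the gland, had 3, 21 and 264, and it was singled out after its values were seen. Its mean was below the floor and only tumour 3 was bright.

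Among other receptors and the R-spondin system, 4 of 21 probe sets were at least 2-fold apart, beside 17.0% of all probe sets. Only 4 of the 21 reached the floor, and 1 of these was 2-fold apart, beside 26.9% of all that reached it. Fzd9 was bright only in tumour 2, with 79, 532 and 59 on 1427529_at. Ryk, a Wnt receptor of the tyrosine kinase type, had 233, 519 and 283 on 1426388_s_at and 454, 647 and 551 on 1451789_a_at. Lrp5, also an LRP co-receptor gene and singled out after its values were seen, had 219, 91 and 49. Its mean was below the floor, and tumour 3 was 2.79-fold below tumour 1. In that pair 2 probe sets of the list were at least 2-fold higher in tumour 3 and 1, that of Lrp5, was lower. None of the 17 probe sets of other secreted antagonists reached the floor, and their highest range was 0.76 (log2). Thus Sfrp1 and Sfrp2 were the inhibitor genes on the array with a mean at or above the floor, among those listed here.

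In the destruction complex and Dishevelled list, 6 of 40 probe sets were at least 2-fold apart, beside 17.0% of all probe sets. Of the 29 that reached the floor 5 were, beside 26.9% of all that reached it. The median range of 0.48 equalled that of all probe sets. The widest was Ppp2r1a, a phosphatase scaffold subunit gene, with 2386, 2048 and 625 on 1438174_x_at, but its other probe sets had ranges of 0.03 to 0.41 (log2). The ubiquitin ligase gene Fbxw11 had 139, 45 and 277 on 1425461_at, while its brighter probe sets 1437468_x_at and 1425462_at had ranges of 0.64 and 0.52 (log2). Tnks2, a tankyrase gene, had the highest mean of the list and intensities of 3935, 4518 and 3055 on 1428388_at. Its dim probe set 1452772_at ran the other way, with 91, 49 and 153.

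Nuclear partners had 5 of 25 probe sets at least 2-fold apart, beside 17.0% of all probe sets. Of the 19 that reached the floor 4 were, beside 26.9% of all that reached it. Of the 25, 15 were lowest in tumour 3, beside 36.1% of all probe sets. The beta-catenin co-activator gene Bcl9l had 419, 450 and 117 and was 2.87-fold lower in tumour 3 than in tumour 1. Tcf7l1, of the same factor family as Lef1, had 506, 488 and 170 on 1436207_at. Its other probe set, 1450117_at, gave 314, 451 and 260, a range of 0.61 (log2) with tumour 3 again lowest. Ctbp1, a co-repressor gene, had 2672, 2746 and 2549.

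Transcriptional targets had the widest median range of these lists, 0.85 (log2). At least 2-fold apart were 12 of 33 probe sets, beside 17.0% of all probe sets, and 16 of 33 were lowest in tumour 1 (32.0% of all probe sets were). The 12 were among the 19 that reached the floor, where the share over all probe sets was 26.9%. Rnf43, Notum and Lgr5 are also in the receptor or antagonist lists. The cyclin D1 gene Ccnd1 had 356, 1634 and 742 on 1417420_at and 343, 1567 and 514 on 1448698_at. Ccn2, a matricellular gene, had 1859, 2253 and 817, lowest in tumour 3. Many of these targets also respond to other pathways. Feedback genes of the list were not uniformly dim. Nkd1, Sp5 and Lgr5 had intensities of at most 32 in any tumour, whereas Nkd2 had 219, 451 and 281 on 1419466_at and 270, 270 and 411 on 1419465_at. Rnf43 had 106, 99 and 38, and Bambi, an inhibitory receptor-like gene, had 348, 755 and 310.

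At adherens junctions, where beta-catenin also binds cadherins, 4 of 13 probe sets were at least 2-fold apart, beside 17.0% of all probe sets. Of the 8 that reached the floor 3 were, beside 26.9% of all that reached it. The N-cadherin gene Cdh2 had 15, 197 and 281 on 1418815_at, with tumour 1 dim. Cdh5, the endothelial cadherin gene, had 165, 211 and 49 on 1433956_at. The alpha-catenin gene Ctnna1 had 4181, 5472 and 3474 on 1448149_at, but 2208, 2868 and 3521 on 1437807_x_at, where tumour 3 was highest in place of lowest.

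**Figure D4:**
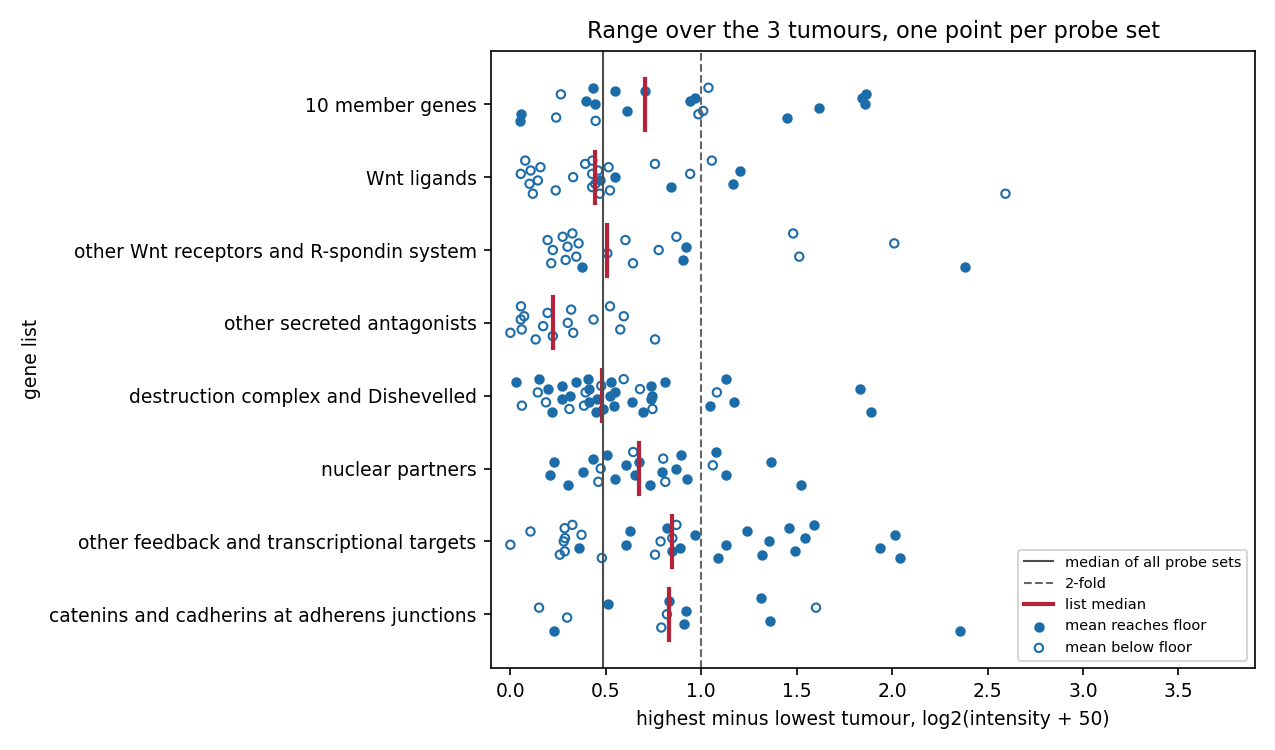
Range over the 3 tumours (highest minus lowest level, log2) for each probe set of the 10 member genes and of the lists of other Wnt pathway genes; filled points reach the floor on average, red lines are list medians, the solid line is the median of all probe sets (0.48) and the dashed line is 2-fold. The member median is 0.71, the target median 0.85 and the median of other secreted antagonists 0.22.

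The probe set with the widest range among members that reached the floor was 1460187_at of Sfrp1. Genes with the most similar levels, by the root mean square difference of levels centred on their own mean over the 3 tumours, were Vat1 (0.03), Isg20 (0.06) and Gbp7 (0.07). In all, 59 probe sets lay within 0.25 of Sfrp1, while 11313 probe sets had a mean that reached the floor. The likeness rests on 3 points, and how often it would arise between unrelated genes was not tested.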

How the data were processed

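The authors deposited whole-number intensities, taken here as linear because of their range. Probe summary, background correction and array scaling are not given in the sources used here. RNA came from RNAzol extraction and was labelled as biotinylated cRNA, per the labels. Of 22690 probe sets, 64 controls were left out. Genes were named from the platform annotation, where 20380 probe sets had 1 gene and 691 several; 20351 gene IDs matched the RefSeq table of GRCm38.p6.

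The 2% trimmed means of the arrays differed by 5.38%, so arrays were quantile normalized, 50 was added and log2 taken. No filter was applied to members. The floor is the median of the mean levels, and 15 of 21 member probe sets reached it. No test was possible with 1 group; counts past 2-fold are descriptions, and the number of arrays limits the precision. Members and lists were chosen with earlier results of these data known. Named genes were all members and, from each list of other pathway genes, the 2 widest ranges and the highest mean among probe sets that reached the floor. Others are marked as chosen after their values were seen. Marker and feedback examples (Col1a1, Dcn, Cd163, Krt18, Cldn3, Muc1, Cldn4, Krt19, Cdh1, Nkd1, Nkd2, Sp5, Lgr5, Rnf43, Bambi) and second probe sets were also chosen so. Alternatives were the values as deposited, array medians subtracted, offsets of 16 and 100, suffixed probe sets left out, the floor as a filter, the mean of a gene's probe sets, and each tumour left out. The ranges and normalization were tested on simulated data. Python 3.11.15, numpy 2.4.6, pandas 2.3.3 and matplotlib 3.10.9 were used.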

Additional observations from a re-analysis of the deposited data

How the results depend on the processing

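The 7 member probe sets at least 2-fold apart became 5 to 9 under the other scalings, offsets and probe set choices, and 1 to 7 with a tumour left out, lowest without tumour 3. By pairs, an offset of 16 gave 2 for tumours 1 and 2 (reported 1) and 6 for tumours 2 and 3 (reported 3), and an offset of 100 gave 4 for tumours 1 and 3 (reported 7). For the other Wnt genes the 35 became 57 with an offset of 16, and 11 to 24 with a tumour left out; these alternatives, and those for counts of the lowest tumour, were chosen after seeing the data. The median range was 0.64 to 0.97 under the same scalings and probe set choices and 0.40 to 0.56 with a tumour left out. The count of members lowest in tumour 3 was 12 under each scaling and offset, 10 of 15 without suffixed probe sets (those with a letter before the ending of their ID) and 9 of 15 above the floor. The 15 of 25 nuclear partner probe sets lowest in tumour 3 became 9 of 18 without suffixed ones. Of 219 values of single probe sets or genes under alternatives other than leaving out a tumour, 210 moved by less than 1 SD and 9 by more. Of the 9, 4 were dim probe sets (Axin2, Fzd1, Fzd7) at an offset of 16. The 28 values without suffixed probe sets and the 32 with the floor as a filter could not move, because a probe set kept its levels there. The SD is that of the same 3 levels, so a range could shrink considerably and still count as unmoved. Averaging the probe sets of Ctnnb1 and of Axin2 gave differences of -0.01 and -0.01 (log2) with the order of the brightest probe set. No paired analysis was possible because there is 1 group. Axin2, Fzd1 and Dkk3 had means below the floor, and no detection or background value was used, so how far their signal lies above background is unknown.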
